A study of Homo sapiens with 9 samples.

Results

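The comparison described here sets MOLM13 cells given a short hairpin RNA (shRNA) labelled YTHDC1 shRNA 1 against the same cells given a control shRNA. It uses 6 of the 9 libraries of the study, 3 for each of these hairpins, and covers every gene in the count table; the other 3 libraries carry YTHDC1 shRNA 2. MOLM13 is a human acute myeloid leukemia line whose growth depends on a KMT2A fusion gene, and the design asks which transcripts change once YTHDC1 is targeted. Per the labels, all libraries shared the same handling: virus was mixed with cells at equal volumes and spun on for 1 h at 32 °C in polybrene (10 ug/ml). After 48 h the cells were selected for 48 h in puromycin (3 ug/ml), a fixed number of cells was taken per sample, and 1 ug of RNA went into a stranded messenger RNA kit. Replicates carry numbers in the labels, with no word on whether they were separate cultures. The p-values therefore cover library-to-library spread alone, and that spread may be technical.

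YTHDC1 is a nuclear protein that binds N6-methyladenosine (m6A), the commonest internal mark of messenger RNA, through its YTH domain. It has known roles in splicing, in the export of methylated transcripts and in the turnover of some nuclear RNAs. In acute myeloid leukemia, YTHDC1 and the m6A writers are known for keeping the cells dividing and undifferentiated, and MYC is one of the transcripts tied to them.

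YTHDC1 itself was hardly lower in the libraries labelled YTHDC1 shRNA 1. Levels are given in CPM, a count relative to the size of its library, after TMM scaling, a correction for library composition. YTHDC1, a chromosome 4 gene, had 129, 134 and 117 CPM in the 3 controls and 112, 97.7 and 129 CPM in shRNA 1 replicates 1 to 3. Replicates 1 and 2 of shRNA 1 lay below every control, but replicate 3 lay above control replicate 3 and level with control replicate 1, so the groups overlapped. The change, -0.17 ± 0.13 on the log2 scale (SE), missed the threshold (edgeR quasi-likelihood, adjusted p = 0.349), and it ran from -0.28 to -0.06 when any 1 library was left out. The table held a pair of YTHDC1 transcripts with nearly equal counts in each library, so the row chosen does not bear on this. Every direction below is thus a direction in libraries that carry the label, not in cells with a measured loss of YTHDC1 mRNA. Protein was not measured.

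MYC, a transcription factor of growth and division on chromosome 8, was well below control. Control replicates 1 to 3 held 495, 512 and 474 CPM of it, against 203, 206 and 154 CPM with shRNA 1. All 3 shRNA 1 libraries lay below all 3 controls, with replicate 3 the lowest. It fell 2.63-fold (log2 -1.39, SE 0.15), with an edgeR adjusted p of 4.47e-05. Among 12 tested members of the MYC and MAX network, MXD1, a repressor that competes with MYC for MAX, rose 2.06-fold from 29.8 ± 2.25 to 61.5 ± 4.50 CPM (SD, n = 3; edgeR adjusted p = 0.000101). MAX and the other partners did not pass, apart from a fall of the MYC-binding factor ZBTB17. That call was lost without control replicate 2 (edgeR adjusted p = 0.0889) and in 3 other fits that left out 1 library. Of 21 tested writers, erasers and readers of m6A, 4 rose (19%, near the 18.3% of all genes) and 1 fell (4.76%, against 19.1%). All 5 changed by less than 1.5-fold, and the median log2 fold change of the list was 0.003. None of the 4 rises, METTL3, METTL16, KIAA1429 (VIRMA) and YTHDF3, passed without control replicate 2 (edgeR adjusted p from 0.0515 to 0.107).

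**Figure D1:**
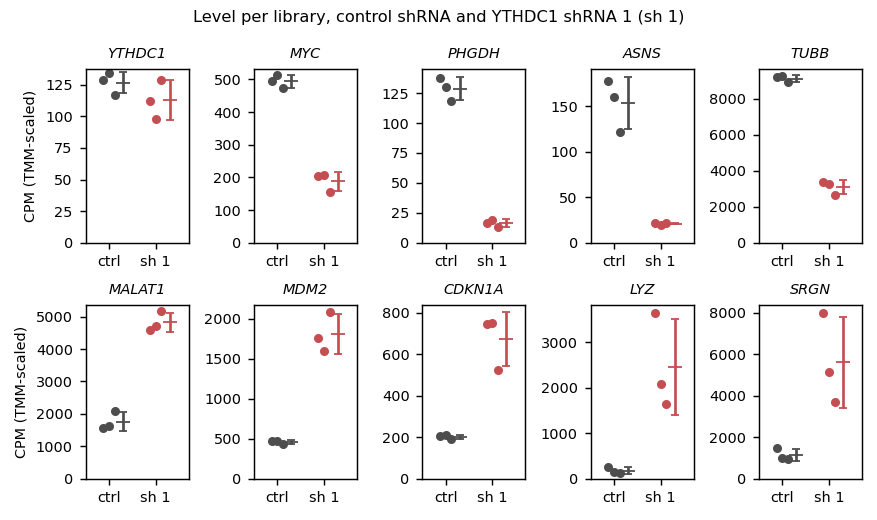
Level of 10 genes in each library (points, CPM on a linear axis from 0) with the group mean and SD (n = 3) beside them, for control shRNA (ctrl, grey) and YTHDC1 shRNA 1 (sh 1, red). The YTHDC1 groups overlap, while the 3 shRNA 1 libraries of the other 9 genes lie on 1 side of all 3 controls.

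The 6 libraries held 48590111 to 67558551 counts each, so a gene with 0 counts could still stand at up to 0.0444 to 0.0617 CPM (3 counts; counting error only). The ribosomal precursor RNA45S5, which poly(A) selection is meant to remove, took 3.04% to 5.57% of the counts in controls and 9.68%, 13.06% and 4.78% in shRNA 1 replicates 1 to 3. With the ribosomal RNA rows left out, the genes called numbered 3083 higher and 2981 lower. The first principal component, with 70.7% of the variance, separated the groups: controls lay from -51.2 to -47.7 and shRNA 1 libraries at 53.8, 37.3 and 58.1. Replicate 2 was thus the shRNA 1 library nearest to control.

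Over 16226 genes tested, 2964 rose (18.3%) and 3101 fell (19.1%) at an edgeR adjusted p under 0.05, 37.4% in either direction. Counts of list members, here and below, are to be read against these shares. The median log2 fold change was -0.008, and the middle of the distribution ran from -0.41 to 0.39 (quartiles). More than 2-fold changes were called for 1261 rises (7.77%) and 1097 falls (6.76%), and more than 4-fold changes for 324 rises and 145 falls. All 3 shRNA 1 libraries lay above all 3 controls for 4047 genes (24.9%) and below them for 4079 (25.1%). The counts were lower without control replicate 2, at 1945 rises and 2015 falls. In bulk RNA, fewer cells that make a transcript cannot be told apart from less of it per cell, here or below.

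The genes of the next 2 paragraphs are the 12 largest called rises and falls among genes whose groups did not overlap and whose higher group had a mean of at least 5 CPM. That limit makes every such fall start from at least 5 CPM in controls and sets no lower limit for the start of a rise. TMEM119, a membrane protein known as a microglia marker, was at 0.108, 0.0304 and 0.0577 CPM in controls and at 6.83, 8.41 and 5.51 CPM with shRNA 1 (log2 fold change 6.69 ± 0.36, edgeR adjusted p = 1.09e-06). ADAMDEC1, a secreted protease of macrophages, rose 31.8-fold to 7.51 ± 1.21 CPM (SD, n = 3; edgeR adjusted p = 9.65e-07). CYBB, the catalytic subunit of the phagocyte NADPH oxidase, went from 0.599, 0.258 and 0.245 CPM to 11.4, 6.58 and 5.22 CPM (log2 fold change 4.39). These genes did not overlap between the groups, and shRNA 1 replicate 1 was the highest library for ADAMDEC1 and CYBB. The kinase LRRK2 rose 19.99-fold from 1.88 ± 0.607 CPM, and TREM1, an amplifier of myeloid inflammation, 16.3-fold from 1.61 ± 0.259 CPM (SD, n = 3). FAM71F2 rose by 4.68 on the log2 scale. The other 6 of the 12 largest rises were CXCL8 and 5 protocadherin beta genes, described below with their groups.

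Among the 12 largest falls within that limit were 5 genes of amino acid supply and stress, CHAC1, STC2, CBS, PHGDH and ASNS. Below it, the glycine transporter SLC6A9 had a larger fall (log2 fold change -5.05). TERT, which holds the catalytic activity of telomerase, went from 7.28, 10.8 and 14.6 CPM to 1.18, 1.73 and 1.77 CPM (log2 fold change -2.80 ± 0.28, edgeR adjusted p = 3e-05). Its controls spread 2-fold, but the lowest of them stood well above the highest shRNA 1 library. KCNG1, a modifier subunit of potassium channels, fell 10.9-fold, and the secreted peptide ADM2 fell 7.45-fold. UBL4B, FJX1, CDC42EP1 and the histone gene HIST1H4I had log2 fold changes of -3.70, -2.99, -2.85 and -2.82.

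**Figure D2:**
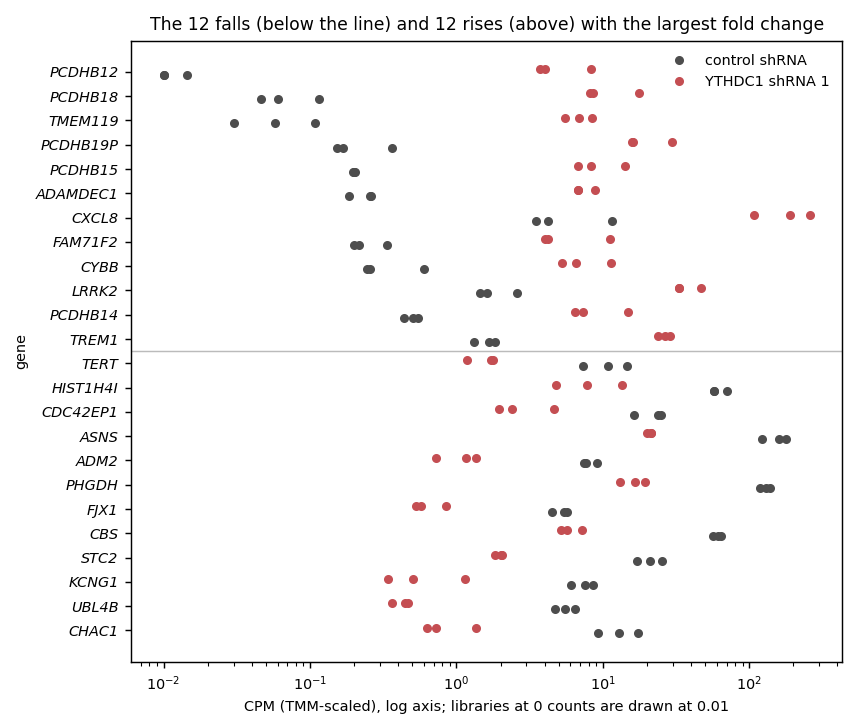
CPM in each library (log axis; libraries with 0 counts are drawn at 0.01) of the 12 falls and 12 rises with the largest fold change among called genes that do not overlap between groups and reach a mean of 5 CPM in 1 group. Control libraries are grey and YTHDC1 shRNA 1 libraries red; 9 of the 12 rises have a control mean below 1 CPM, while the choice of genes itself places every fall above 5 CPM in controls.

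Genes that copy DNA were lower almost throughout. Of 43 tested replication genes, 40 fell and 0 rose (median log2 fold change -1.40). All 5 licensing genes and all 12 helicase genes passed, as did 8 of 9 polymerase and primase genes. MCM2, a subunit of the replicative helicase, was at 131, 129.9 and 123 CPM in controls and at 22.8, 29.6 and 15.9 CPM with shRNA 1 (5.61-fold lower, log2 fold change -2.49 ± 0.20, edgeR adjusted p = 8.18e-06). CDT1, which loads that helicase, fell 5.21-fold, and CDC45, which activates it, 4.83-fold. PCNA, the sliding clamp, fell less, from 140.4 ± 17.2 to 82.7 ± 10.98 CPM (SD, n = 3; edgeR adjusted p = 0.00174). The 3 members that did not pass were the single-strand binding genes RPA1 and RPA2 and the primase subunit PRIM2, with log2 fold changes from -0.34 to -0.19.

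Mitotic genes fell to a like extent: 32 of 33 tested members were called lower, with a median of -1.44. AURKB, the kinase that corrects chromosome attachment, was at 26.0, 25.3 and 24.97 CPM in controls and at 5.80, 6.69 and 4.50 CPM with shRNA 1 (log2 fold change -2.16 ± 0.17, edgeR adjusted p = 6.87e-06). PLK1, a master kinase of mitosis, fell from 34.3, 28.5 and 31.4 CPM to 9.57, 8.75 and 7.63 CPM (3.63-fold). Neither gene had overlapping groups. The proliferation marker MKI67 fell 2.63-fold from 378 CPM, and the cyclin CCNB2 fell 2.56-fold from 49.6 CPM. The exception was FZR1, an activator of the anaphase-promoting complex that works in G1, at 13.9 and 8.72 CPM (edgeR adjusted p = 0.0657).

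Replication-dependent histones, whose mRNAs are made in S phase and lack a poly(A) tail, fell in all 24 tested members (median log2 fold change -1.95). HIST1H2AE was at 182, 139 and 145 CPM in controls and at 28.1, 33.3 and 17.3 CPM with shRNA 1, with no overlap. In poly(A)-selected libraries these levels also depend on the selection. The histone genes HIST2H3A and HIST2H3C, which had identical values and are near-identical copies, held 56.5, 109 and 20.4 CPM in shRNA 1 replicates 1 to 3, a spread of over 5-fold in the order of their RNA45S5 shares. Their call (edgeR adjusted p = 0.00138) was lost with no filter on low counts, under the replicate block and with all 9 libraries (0.0542, 0.0814 and 0.173). SCARNA2 and RNA5-8S5, also short of a poly(A) tail, had the same order in these 3 libraries, with 60.4, 162 and 24.1 CPM and 225, 541 and 102 CPM. Neither of those 2 noncoding RNAs passed the test (edgeR adjusted p = 0.733 and 0.542). The part of poly(A) selection in the histone values was not tested.

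The supply of nucleotides and the repair of DNA followed the same direction. Of 24 nucleotide synthesis genes, 19 fell and 1 rose (median log2 fold change -0.76). RRM2, the S-phase subunit of ribonucleotide reductase, went from 95.5, 71.1 and 76.2 CPM to 23.5, 16.6 and 18.3 CPM (4.17-fold lower), and TK1, a thymidine kinase, fell 3.79-fold. The member that rose was SAMHD1, which degrades deoxynucleotides: 67.4, 65.0 and 53.5 CPM in controls against 275, 208 and 191 CPM (log2 fold change 1.86 ± 0.16, edgeR adjusted p = 1.43e-05). Of 24 repair genes 20 fell and 0 rose (median -0.89), among them all 8 Fanconi genes tested. XRCC2, of homologous recombination, fell 4.73-fold, and FANCD2 fell 2.41-fold. ATM, ATR, BRCA2 and CHEK2 did not pass.

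At the gate to S phase, 10 of 21 tested genes fell (47.6%, against 19.1% of all genes) and 5 rose (23.8%, near the 18.3% of all genes). E2F1 and E2F2, which switch on replication genes, fell 5.27-fold and 5.76-fold, to 3.07 ± 0.565 and 1.69 ± 0.316 CPM (SD, n = 3). Cyclin E1 (CCNE1) fell 2.81-fold. CDKN1A, the inhibitor p21, rose from 204, 209.7 and 192 CPM to 748, 753 and 523 CPM (3.34-fold, log2 fold change 1.74 ± 0.16, edgeR adjusted p = 2.2e-05), and CDK6 rose 1.52-fold. The calls of CCND3 and CDKN1C were lost when any of 3 single libraries was left out (edgeR adjusted p from 0.05 to 0.0774), CDKN1C at under 0.3 CPM in both groups. Only 2 of the 5 rises passed without control replicate 3.

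Promoter sequence is printed for a few of these genes because their lists share known letters upstream of the start. The sequences are RefSeq's for build GRCh38.p14, 5′ to 3′ on the gene's own strand and end at or before the transcription start; capitals mark the motif. Both strands were searched from 250 bases before to 50 after the start. The letters TTTGAA, known as a cell cycle homology region, stood in 19 of the 29 mitosis promoters found (65.5%, against 15.2% of all 35116 promoters). CCAAT boxes stood in 20 of the 29 (69.0%, against 34.6%). TTTNNCGC, an E2F-type site, stood in 20 of the 36 replication promoters (55.6%, against 6.89%). A match is a description of the letters and not a measured binding site.
PLK1, chr16:23678820-23678888, plus strand: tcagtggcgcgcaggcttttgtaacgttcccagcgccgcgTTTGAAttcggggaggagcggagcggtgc
CCNB2, chr15:59105077-59105145, plus strand: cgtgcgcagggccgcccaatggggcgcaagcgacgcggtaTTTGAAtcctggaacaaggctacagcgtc
GINS2, chr16:85688955-85689025, minus strand: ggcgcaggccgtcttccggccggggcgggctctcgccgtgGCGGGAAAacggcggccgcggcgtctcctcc
In PLK1 and CCNB2 the motif begins 29 bases before the start. In GINS2, a helicase gene that fell 3.48-fold, the reverse complement of TTTNNCGC begins 31 bases before it.

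Targets of p53, the DNA damage and stress regulator, rose in part. Of 29 tested, 17 rose and 1 fell (median log2 fold change 0.74). MDM2, the ubiquitin ligase that degrades p53, went from 474, 470 and 433 CPM to 1763, 1593 and 2087 CPM. BTG2, an antiproliferative gene, went from 16.8, 16.9 and 19.8 CPM to 91.5, 91.5 and 72.2 CPM (4.78-fold, edgeR adjusted p = 2.67e-06). TP53INP1, a stress-induced partner of p53, rose 4.06-fold, and RRM2B, the p53-induced subunit of ribonucleotide reductase, 3.31-fold. All 4 tested repair targets rose. The death genes were mixed: FAS, a death receptor, rose 3.04-fold from 25.1 CPM, and BAX passed at 1.49-fold only while control replicates 1 and 2 were both in the fit (edgeR adjusted p = 0.0545 and 0.0543 without them). PMAIP1 and BBC3, the BH3-only killers NOXA and PUMA, both had log2 fold changes of 0.006 and did not pass. SESN2, which is also a target of ATF4, was the member that fell: 35.7, 42.9 and 31.2 CPM in controls and 14.3, 20.4 and 11.2 CPM with shRNA 1 (2.39-fold).

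Of 15 tested BCL2 family genes, 5 rose (33.3%, against 18.3% of all genes) and 1 fell (6.67%, against 19.1%). BCL2, the blocker of mitochondrial death that gives the family its name, fell from 86.2, 92.5 and 100.4 CPM to 35.4, 36.3 and 47.3 CPM (log2 fold change -1.23 ± 0.14, edgeR adjusted p = 8.59e-05). Other guardians went up: MCL1 rose 1.59-fold to 575 ± 64.0 CPM, and BCL2A1, which NF-kB induces, rose 5.75-fold to 9.08 ± 3.02 CPM (SD, n = 3). BMF, a BH3-only member of the family, rose 1.84-fold.

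Genes of serine, one-carbon and sulfur metabolism were among the deepest falls. Of 19 tested, 14 fell and 1 rose (median log2 fold change -0.97), and all 5 serine genes and both transsulfuration genes fell. PHGDH, which makes the first step from glycolysis to serine, went from 138, 130.04 and 118 CPM to 16.7, 19.3 and 13.2 CPM (7.85-fold, log2 fold change -2.97 ± 0.16, edgeR adjusted p = 1.09e-06). PSAT1, the next enzyme, fell 5.11-fold from 326 ± 54.6 CPM, and PSPH, the last, 1.79-fold from 56.2 CPM. SHMT2, the mitochondrial serine hydroxymethyltransferase, fell 3.58-fold. CTH, which makes cysteine after CBS, went from 16.6, 16.4 and 13.3 CPM to 3.01, 2.83 and 2.53 CPM. The single rise, MTHFD2L, was lost in 5 of the 6 fits that left out 1 library (edgeR adjusted p from 0.0604 to 0.181).

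ATF4, the transcription factor that answers amino acid shortage, and 11 other genes of its response fell, out of 15 tested, while 2 rose (median log2 fold change -1.26). ATF4 mRNA fell 1.62-fold from 538 to 333 CPM (edgeR adjusted p = 0.00362). CHAC1, which degrades glutathione, was at 13.0, 17.4 and 9.27 CPM in controls and at 0.723, 1.37 and 0.633 CPM with shRNA 1 (log2 fold change -3.84 ± 0.33, edgeR adjusted p = 1.29e-05). ASNS, asparagine synthetase, went from 178.5, 161 and 122 CPM to 21.5, 20.1 and 21.4 CPM. These 3 ASNS values lay close together, while the controls were more spread. The pseudokinase TRIB3 fell 5.02-fold and the mTORC1 inhibitor DDIT4 3.59-fold. NUPR1, a stress-induced nuclear protein, rose 2.91-fold from 0.446 CPM, and the rise of ATF3 was lost without control replicate 2 or 3 (edgeR adjusted p = 0.0629 and 0.0985).

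Amino acid import and charging moved with this group. Of 16 tested transporters 8 fell (50%, against 19.1% of all genes) and 2 rose (12.5%, against 18.3%), with a median log2 fold change of -0.92. SLC7A5, the importer of large neutral amino acids, fell 6.09-fold to 27.8, 44.0 and 28.1 CPM, and its partner SLC3A2 fell 2.84-fold. SLC6A9, a glycine transporter, was at 2.70, 3.74 and 2.84 CPM in controls and at 0, 0.17 and 0.0904 CPM with shRNA 1. The rises were SLC43A2, another transporter of neutral amino acids (8.77-fold, from 1.44 ± 0.375 to 12.6 ± 2.83 CPM), and SLC36A1, an exporter of amino acids from lysosomes (2.96-fold). Of 20 cytosolic tRNA synthetases 16 fell and 0 rose (median -0.79), led by MARS, AARS and GARS at 2.79-fold, 2.77-fold and 2.49-fold.

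The letters TGATGNAA, the composite site of ATF4 and C/EBP proteins, are shown in promoters of ASNS and CHAC1, again from RefSeq on GRCh38.p14.
ASNS, chr7:97872429-97872516, minus strand: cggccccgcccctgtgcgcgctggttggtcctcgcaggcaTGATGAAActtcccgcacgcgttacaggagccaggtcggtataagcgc
CHAC1, chr15:40953222-40953309, plus strand: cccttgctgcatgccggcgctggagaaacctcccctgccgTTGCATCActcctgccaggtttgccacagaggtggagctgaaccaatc
The motif begins 68 bases before the ASNS start and, as its reverse complement, 209 bases before the CHAC1 start. It stood in 6 of 16 tRNA synthetase promoters (37.5%), all 6 among the 13 that fell, and in 3 of 15 of the transporters, all 3 among the 8 that fell. In the ATF4 list it stood in 3 of 14 promoters (21.4%): 2 of 12 that fell and that of ATF3, which rose. In the serine and one-carbon list it stood in 1 of 14 (7.14%), against 3.62% of all promoters. PHGDH, PSAT1, CBS and CTH had no match in this window.

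Transcripts of nucleolar proteins that build ribosomes were lower. Of 30 nucleolar genes 23 fell and 0 rose (median log2 fold change -0.66). GRWD1, a histone-binding assembly factor, went from 38.1, 36.6 and 35.8 CPM to 12.04, 14.7 and 9.70 CPM (3.03-fold), and BOP1, of the large subunit pathway, fell 2.73-fold. NPM1 and NCL, the abundant nucleolar proteins, fell 1.68-fold and 1.54-fold. Of 34 cytosolic ribosomal protein genes, 5 fell and 0 rose, under the 19.1% of all genes (median -0.33), and 10 fell without shRNA 1 replicate 2. RPS2 and RPL3, on the small and the large subunit, had log2 fold changes of -0.82 and -0.80. Their summed level was 83970 to 89920 CPM in controls, 81300 and 76900 CPM in shRNA 1 replicates 1 and 2, and 55950 CPM in replicate 3, so replicate 3 stood apart here. EEF2, a translocation factor of the ribosome, also fell (1.57-fold), a call lost without control replicate 2 or 3 (edgeR adjusted p = 0.0631 and 0.0611). TUBB, a beta tubulin, had the largest drop in CPM of all called genes, from 9184, 9250 and 8914 to 3353, 3286 and 2656 CPM. It passed at an edgeR adjusted p of 5.16e-05 but not in a fit of all 9 libraries (0.576). With shRNA 2 replicate 1 left out of that fit, TUBB was called.

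Energy and lipid lists moved less. Of 26 respiratory chain genes 4 fell (15.4%, against 19.1% of all genes) and 0 rose (median log2 fold change -0.09). Without control replicate 1, 1 fell. Of 23 glycolysis genes 7 fell (30.4%, against 19.1% of all genes) and 3 rose (13%, against 18.3%). They were led by a 2.32-fold fall of the lactate exporter SLC16A1 and a 3.53-fold rise of HK3, a myeloid hexokinase, from 0.602 CPM. Of 26 cholesterol genes 8 fell (30.8%) and 4 rose (15.4%, against 18.3% of all genes). Without control replicate 3, 3 fell. SREBF1, a regulator of lipid synthesis, fell 2.41-fold, and ABCA1, which exports cholesterol, rose 3.16-fold to 45.1 ± 5.14 CPM (SD, n = 3).

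**Figure D3:**
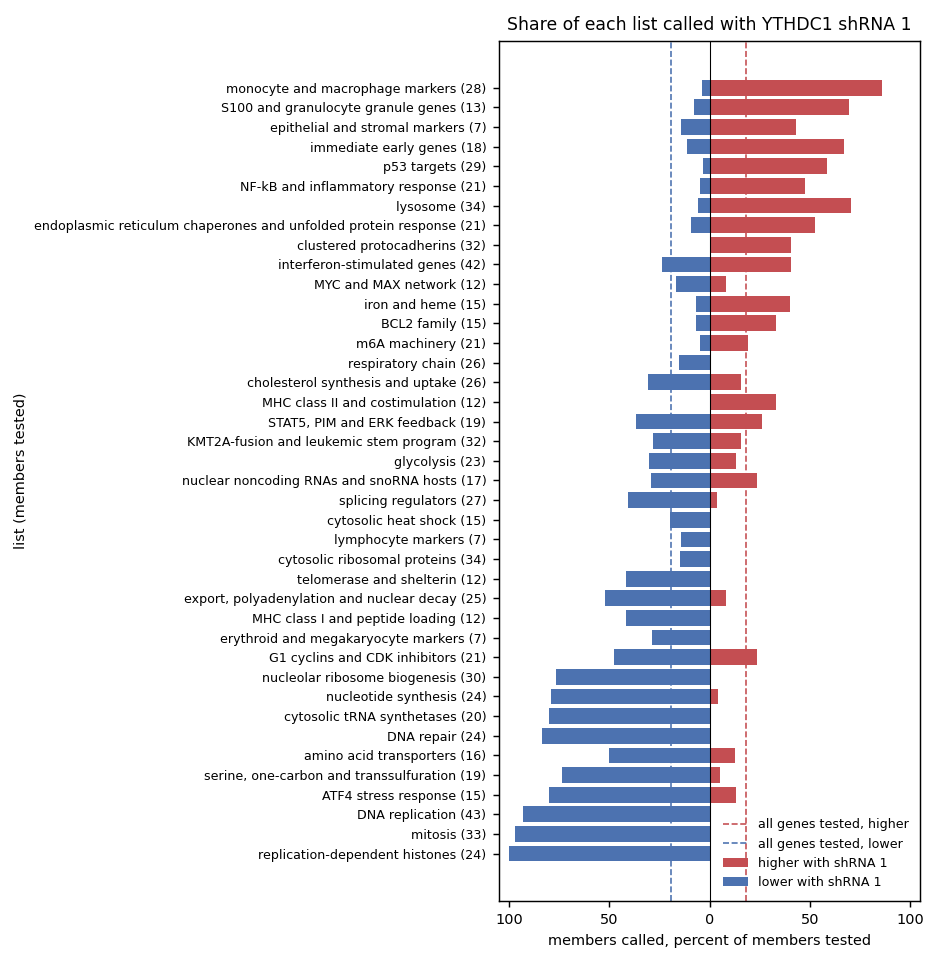
Percent of the tested members of each gene list called higher (red, to the right) or lower (blue, to the left) with YTHDC1 shRNA 1 at an edgeR adjusted p under 0.05; the number of members tested is in brackets, and lists are ordered by median log2 fold change. Dashed lines mark all 16226 genes tested, at 18.3% higher and 19.1% lower; all 24 histone genes and 24 of 28 monocyte and macrophage markers were called.

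Markers of monocytes and macrophages formed the list with the highest share of rises. Of 28 tested, 24 rose and 1 fell (median log2 fold change 1.99). The list has 35 members, and those low in both groups were not tested. C1QA and SIGLEC1 passed the count filter only through shRNA 1, so the share of rises is partly set by the filter. LYZ, the lysozyme of myeloid granules, went from 263, 143 and 131 CPM to 3630, 2082 and 1634 CPM (13.7-fold, log2 fold change 3.77 ± 0.36, edgeR adjusted p = 2.78e-05). Both groups had their highest LYZ level in replicate 1. CSF1R, the receptor of macrophage colony-stimulating factor, rose from 4.35, 4.39 and 5.05 CPM to 21.8, 25.02 and 17.3 CPM. The scavenger receptor CD36 rose 9.27-fold, the costimulator CD86 8.30-fold to 15.8 ± 0.640 CPM (SD, n = 3), and the integrin ITGAM (CD11b) 3.38-fold. TLR4, the receptor of bacterial lipopolysaccharide, rose 6.90-fold, and CD68, a lysosomal glycoprotein of macrophages, 1.82-fold. The complement gene C1QA had 3 counts in the controls and 67 with shRNA 1, a ratio of 25.9 with a 95% counting interval from 8.48 to 129.

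The macrophage pattern was not complete. CEBPB, a factor of monocytic differentiation that also belongs to the ATF4 list, was the member that fell, from 7.39, 9.24 and 6.42 CPM to 4.19, 3.84 and 3.72 CPM (1.96-fold). Among the members with too few counts to be tested were CD14, FCGR3A, MRC1, C1QB, C1QC and MMP9: CD14 held 32 counts in the 6 libraries together, and C1QB none. SRGN, the proteoglycan core of myeloid granules, was among the largest gains in CPM, from 1482, 997 and 977 to 8012, 5165 and 3698 CPM (4.88-fold).

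Granule genes rose in part. All 5 tested S100 genes rose; S100A8 and S100A9, the calprotectin pair of phagocytes, rose 4.27-fold and 3.92-fold, and S100A6 2.79-fold. Of 8 azurophil granule genes 4 rose and 1 fell. RNASE3, an eosinophil ribonuclease, rose from 4.85, 4.03 and 4.56 CPM to 35.5, 21.5 and 20.3 CPM. CTSG, cathepsin G, was lower at 607 ± 120.3 against 840.2 ± 67.6 CPM (SD, n = 3; edgeR adjusted p = 0.0475), a call lost in 5 of the 6 fits that left out 1 library (adjusted p from 0.0673 to 0.156). None of the secondary granule genes, such as LTF and CAMP, had enough counts to be tested.

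In the leukemic stem and KMT2A-fusion list, 5 of 32 tested members rose and 9 fell, against 18.3% and 19.1% of all genes (median log2 fold change -0.15). Without control replicate 2, 3 rose and 6 fell, and the calls of SPI1 and FLT3 were each lost in 5 of the 6 fits that left out 1 library (edgeR adjusted p from 0.0535 to 0.136). MEIS1, the cofactor of HOXA9, fell from 53.02, 62.3 and 55.9 CPM to 24.3, 30.5 and 36.9 CPM (1.87-fold, edgeR adjusted p = 0.00129), and HOXA10 fell 1.56-fold. HOXA9 and MYB did not pass, with log2 fold changes of -0.05 and -0.08. DOT1L, the histone methyltransferase recruited by the fusion, fell 1.88-fold, and PSIP1, which ties KMT2A to chromatin, 2.01-fold. The rises were led by CEBPE, at under 0.5 CPM in both groups and lost without control replicate 2 or 3 or shRNA 1 replicate 2 (edgeR adjusted p from 0.0507 to 0.0669), by the surface enzyme CD38 (3.57-fold, from 4.28 to 15.3 CPM) and by LMO2 (2.12-fold).

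Of 21 tested NF-kB and inflammatory genes, 10 rose and 1 fell (median log2 fold change 0.74), 7 of the rises among 10 cytokine genes and 3 among 11 factors and feedback genes; the difference between these shares was not tested. CXCL8, the neutrophil attractant interleukin 8, went from 11.49, 3.48 and 4.195 CPM to 260.5, 190.4 and 108 CPM (29.2-fold, log2 fold change 4.87 ± 0.49, edgeR adjusted p = 4.54e-05). Control replicate 1 and shRNA 1 replicate 1 were the highest of their groups. The chemokine CCL3 rose 10.5-fold and interleukin 1 beta (IL1B) 7.78-fold, while CCL5 fell 1.66-fold. NFKBIA and TNFAIP3, feedback genes that NF-kB induces, had log2 fold changes of 0.16 and -0.05 and did not pass. IL6, CXCL1 and 4 other cytokines had too few counts to be tested.

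Immediate early genes, which answer signals within minutes, rose in 12 of 18 tested and fell in 2 (median log2 fold change 0.89). JUN rose from 5.08, 5.97 and 5.95 CPM to 18.7, 22.6 and 18.5 CPM (3.51-fold), FOS 2.28-fold, FOSB 2.75-fold and KLF4 2.77-fold. The falls were IER2 (1.60-fold) and EGR1, whose groups overlapped and whose call was lost in 4 of the 6 fits that left out 1 library (edgeR adjusted p from 0.0748 to 0.131). Of 10 tested genes tied to ERK signalling and its feedback, 2 rose and 4 fell, against 18.3% and 19.1% of all genes. DUSP6 rose 1.98-fold, while ETV4 and SPRY2 fell 3.31-fold and 1.66-fold. SOCS3, a brake on STAT signalling, rose 2.46-fold.

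Of 42 interferon-stimulated genes, 17 rose (40.5%, against 18.3% of all genes) and 10 fell (23.8%, near the 19.1% of all genes). The median log2 fold change was 0.38, and 6 were lower without control replicate 2. IFIT2, of the RNA-binding IFIT family, went from 3.44, 4.36 and 3.19 CPM to 23.2, 24.9 and 31.2 CPM. IFIT3 went from 1.87, 2.05 and 2.03 CPM to 10.7, 11.48 and 14.7 CPM (6.18-fold, log2 fold change 2.63 ± 0.19, edgeR adjusted p = 4.68e-06). IFIT1 and OAS1, a sensor of double-stranded RNA, rose 3.77-fold and 3.10-fold. Against this, the membrane restriction factors of the IFITM family fell: IFITM1 2.48-fold, IFITM2 1.90-fold from 35.3 CPM and IFITM3 1.91-fold. OAS3, a relative of OAS1 encoded beside it on chromosome 12, fell from 5.70, 4.45 and 4.87 CPM to 2.51, 2.19 and 2.26 CPM. The chemokine CXCL11 fell 4.17-fold. ISG15 and MX1, common readouts of interferon, had log2 fold changes of 0.49 and 0.25 and did not pass. The IFITM3 call was lost without control replicate 3 (edgeR adjusted p = 0.0552) or shRNA 1 replicate 1 (0.0536).

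The interferon-stimulated response element, searched as a pair of GAAA letters with any 2 bases between them, did not separate these directions. It stood in 20 of 31 promoters found (64.5%, against 3.57% of all promoters), in 6 of 10 genes that rose, 5 of 8 that fell and 9 of 13 that did not pass. A promoter of each kind is shown from RefSeq on GRCh38.p14, with all matches in capitals.
IFIT3, chr10:89327835-89327924, plus strand: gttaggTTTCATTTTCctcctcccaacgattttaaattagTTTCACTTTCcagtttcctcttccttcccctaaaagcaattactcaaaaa
IFITM3, chr11:320861-320935, minus strand: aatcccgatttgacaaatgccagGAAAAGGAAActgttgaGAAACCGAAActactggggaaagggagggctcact
IFIT3 rose and IFITM3 fell, and each holds a pair of matches upstream of its start.

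**Figure D4:**
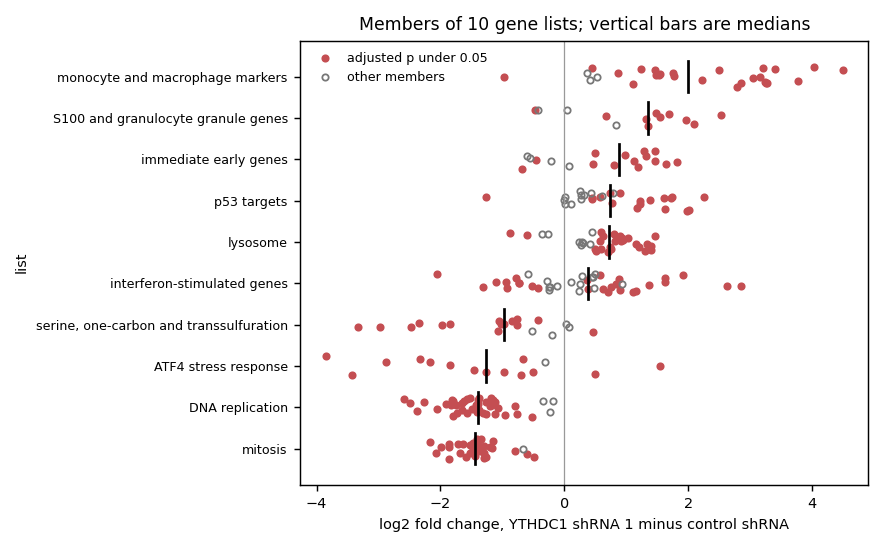
Log2 fold change of each tested member of 10 gene lists (x axis, YTHDC1 shRNA 1 minus control), with called genes filled in red, others open in grey, and the list median as a black bar. Interferon-stimulated genes spread on both sides of 0, from -2.06 to 2.85, while mitosis and replication genes all lie below 0.

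Lysosomal genes rose as a group. Of 34 tested, 24 rose and 2 fell (median log2 fold change 0.72), with 17 of the rises among 21 hydrolases. CTSA, the protective protein cathepsin A, went from 28.3, 25.8 and 25.9 CPM to 81.0, 71.9 and 58.6 CPM (log2 fold change 1.40 ± 0.14, edgeR adjusted p = 3.39e-05). TPP1, a lysosomal peptidase, rose 2.53-fold, LIPA, the acid lipase, 2.47-fold, and PSAP, the saposin precursor, 2.31-fold. GUSB, beta-glucuronidase, fell 1.84-fold to 11.2 ± 0.237 CPM (SD, n = 3). Of the related factors, TFE3 rose 1.76-fold from 8.12 CPM (edgeR adjusted p = 0.00103), and TFEB and MITF did not pass. TCACGTGA, the core of the element that TFEB and its relatives bind and itself a form of the E-box CACGTG, stood in 5 of 22 lysosome promoters (22.7%, against 0.98%): 2 of 15 that rose and 3 of 6 that did not pass. The CTSA promoter is shown as one of those that rose.
CTSA, chr20:45891269-45891334, plus strand: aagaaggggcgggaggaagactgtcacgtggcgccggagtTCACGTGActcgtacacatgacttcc

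Iron storage and endoplasmic reticulum genes also rose. Both ferritin genes rose: FTH1 from 145, 135 and 141 CPM to 495, 423 and 416 CPM (3.17-fold), and FTL 1.93-fold to 1595 ± 367 CPM (SD, n = 3). NCOA4, which delivers ferritin to lysosomes, rose 1.93-fold, and HMOX1, which breaks down heme, 8.47-fold from 0.280 CPM. Of 21 endoplasmic reticulum genes 11 rose, all of them chaperones or folding enzymes, and 2 fell (median log2 fold change 0.42); 7 rose without control replicate 2. HSPA5 (BiP) went from 61.2, 44.6 and 51.4 CPM to 156, 122 and 97.0 CPM, and CRELD2 rose 2.90-fold. XBP1, a factor that induces such chaperones, fell 1.69-fold from 456 ± 61.3 CPM (edgeR adjusted p = 0.00276). Of 15 cytosolic heat shock genes 0 rose and 3 fell (20%, near the 19.1% of all genes).

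Antigen presentation was lower for class I and mixed for class II. Of 12 class I genes 5 fell (41.7%, against 19.1% of all genes) and 0 rose. TAP2, a peptide transporter, went from 306, 392 and 396 CPM to 115, 151 and 182 CPM, and the immunoproteasome subunit PSMB9 fell 2.20-fold. Of 12 tested genes of class II and costimulation 4 rose (33.3%, against 18.3% of all genes): HLA-DMA, HLA-DMB, HLA-DOA and the costimulator CD86. HLA-DOA was at 0.0304 CPM in controls and 0.235 CPM with shRNA 1, and its call was lost in the fits of 8 and 9 libraries. HLA-DMB, which helps peptides load, rose from 1.11, 0.851 and 1.10 CPM to 5.65, 4.07 and 2.89 CPM, while HLA-DRA and CD74 did not pass. In a fit of all 9 libraries TAP2, PSMB9 and HLA-DMB did not pass (edgeR adjusted p = 0.503, 0.549 and 0.277). Each passed with shRNA 2 replicate 1 left out of that fit, and in every fit that left out 1 of the 6 libraries.

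Clustered protocadherins, adhesion genes on chromosome 5, were called higher mainly in the beta cluster. Of the 32 tested members, 28 had all 3 shRNA 1 libraries above all 3 controls, against 24.9% of all genes. The lowest log2 fold change in the list was 0.069. All 11 tested beta genes were called, against 1 of 5 alpha and 1 of 16 gamma genes. Beta genes with almost no control counts, such as PCDHB7 and PCDHB12, passed the count filter only through shRNA 1. A gene low in both groups was not tested, so the share called is partly set by the filter. PCDHB15 was at 0.2, 0.198 and 0.202 CPM in controls and at 6.72, 8.27 and 14.1 CPM with shRNA 1 (log2 fold change 5.59 ± 0.34, edgeR adjusted p = 2.17e-06). PCDHB12 had 1 count in all controls together and 915 with shRNA 1. PCDHB7 had 0 control counts and was at least 30.9-fold higher against a floor of 3 counts over the group. Replicate 3 was the highest shRNA 1 library for PCDHB12, PCDHB15 and the pseudogenes PCDHB18 and PCDHB19P. The beta rises ran down to 3.19-fold in PCDHB9. Without shRNA 1 replicate 3, 24 members of the list passed, against 13 with all 6 libraries, so the count of calls depends on that library. The difference between the clusters was not tested. Gamma transcripts share their last exons and had nearly equal values, so they are not separate observations, and beta genes resemble each other enough for reads to be shared.

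Splicing and RNA processing genes were lower more often than higher. Of 27 splicing regulators 11 fell and 1 rose (median log2 fold change -0.23), and of 25 export, polyadenylation and decay genes 13 fell and 2 rose (median -0.37). These falls numbered 7 without control replicate 2 and 8 without control replicate 1. SRSF2 and HNRNPF, splicing factors of the SR and hnRNP families, fell 1.65-fold and 1.71-fold. ALYREF, an mRNA export adaptor, fell from 50.3 to 28.7 CPM, and EXOSC2, a subunit of the RNA exosome, 2.08-fold from 60.7 ± 1.17 CPM. RBM7, of the complex that guides the exosome to nuclear RNA, rose 1.56-fold.

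Of 5 tested long nuclear RNAs 4 rose, and of 12 host genes of small nucleolar RNAs 5 fell and 7 did not pass. MALAT1, the RNA of nuclear speckles, went from 1570, 1613 and 2093 CPM to 4602, 4695 and 5165 CPM (2.74-fold, log2 fold change 1.45 ± 0.17, edgeR adjusted p = 9.27e-05). NEAT1, the scaffold of paraspeckles, went from 62.9, 64.0 and 98.3 CPM to 150.5, 158 and 294 CPM (2.67-fold). KCNQ1OT1 and FTX also rose, but both calls were lost without control replicate 1 or 2 (edgeR adjusted p from 0.0792 to 0.117). The hosts that fell included EPB41L4A-AS1 (1.86-fold) and SNHG1 (1.67-fold). The summed level of 286 small nucleolar and Cajal body RNAs was 5488, 5282 and 2947 CPM in shRNA 1 replicates 1 to 3 and 3370 to 4265 CPM in controls, so it overlapped.

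Gene length in the genome went with the direction of change. Among 2326 tested genes that span up to 5 kb, 10.6% rose and 18.7% fell (median log2 fold change -0.12), against 18.3% and 19.1% of all genes. These shortest genes thus had fewer rises but not more falls. Falls were most frequent from 5 to 10 kb, at 25.2%. Among 2633 genes that span over 100 kb, 27.1% rose and 12.7% fell (median 0.16). The medians for 5 to 10, 10 to 20, 20 to 50 and 50 to 100 kb were -0.15, -0.13, -0.04 and 0.09. In single libraries, the median of genes over 100 kb stood 0.14, 0.06 and 0.25 above the control mean (log2) in shRNA 1 replicates 1 to 3, and within 0.02 of it in each control. For genes up to 5 kb the medians were -0.209, -0.029 and -0.197 in shRNA 1 replicates 1 to 3. The controls stood at -0.056, 0.002 and 0.064 there, so shRNA 1 replicate 2 lay within their range. Replicate 2 had the weakest dependence on length and replicate 3 the strongest. By chromosome, medians were lowest on 22, 16 and 19, at -0.27, -0.23 and -0.20.

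**Figure D5:**
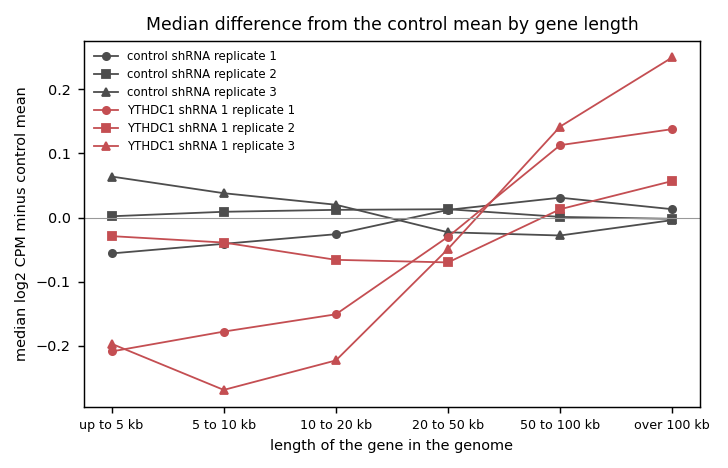
Median log2 CPM minus the mean of the control libraries, for genes in 6 classes of length in the genome (x axis), with 1 line per library; controls are grey and YTHDC1 shRNA 1 libraries red. Genes up to 5 kb lie below 0 and genes over 100 kb above 0 in all 3 shRNA 1 libraries. Up to 5 kb, however, shRNA 1 replicate 2 lies within the range of the controls.

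At the level of transcript rows, 31914 distinct rows were tested, and 3 genes, named here after their values were seen, had rows called in opposite directions: IL4I1, SPTB and TOR1AIP2. A row of TOR1AIP2 went from 42.3, 42.3 and 41.9 CPM to 99.5, 84.1 and 99.6 CPM (log2 fold change 1.16 ± 0.11, edgeR adjusted p = 3.11e-05). Another TOR1AIP2 row went from 59.6, 59.6 and 56.5 CPM to 35.0, 33.4 and 40.6 CPM (-0.69 ± 0.11, edgeR adjusted p = 0.000858). How reads shared by transcripts were counted is not given in the sources used here.

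Many markers of other cell types were low, but not all, and some rose. The summed level of 18 erythroid and megakaryocyte markers was 12.8 to 17.2 CPM in controls and 9.53 to 11.7 CPM with shRNA 1, with HBA2, GYPB and PF4 at 0 counts in all 6 libraries. That of 17 lymphocyte markers was 163 to 173 and 114 to 150.3 CPM, with CD2 at 0 and the T-cell genes CD3D, CD3E and CD3G at 2 to 6 counts in all. PAX5, a B-lineage factor, fell 3.05-fold from 36.0 ± 1.97 CPM. Other lymphocyte markers, not reported here, made up most of that summed level, so this list was not low throughout. That of 15 epithelial and stromal markers was 38.6 to 41.0 and 145 to 203 CPM, with KRT19 at 0 and EPCAM at 2 counts. PECAM1, an adhesion molecule of endothelium that monocytes also carry, made up most of that rise, from 25.8, 19.0 and 21.2 CPM to 165, 109 and 112 CPM. Of 7 tested members of the epithelial and stromal list, 3 rose and 1 fell. ACTA2 rose 2.63-fold, from 11.9 to 31.4 CPM (edgeR adjusted p = 4.02e-05). The calls of PDGFRB (higher) and LUM (lower), both under 1 CPM, were lost without control replicate 2 (edgeR adjusted p = 0.122 and 0.144). Of the defining myeloid markers, ITGAM, CD68, MPO and LYZ were present in every library.

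The second hairpin was compared only to show where shRNA 1 differs. Tested against shRNA 2 directly, 2194 genes were higher with shRNA 1 (13.5%) and 2159 lower (13.3%). In replicate 1 of shRNA 2, YTHDC1 had 0 counts; without that library, 1626 (9.84%) were higher and 1726 (10.4%) lower, and values below are given in that order. Of 33 mitosis genes, 32 and 31 were higher with shRNA 1 than with shRNA 2, and of 43 replication genes 32 and 32, with 0 lower. NF-kB and inflammatory genes were lower with shRNA 1 for 15 and 15 of 21, and monocyte and macrophage markers for 15 and 16 of 28. Endoplasmic reticulum genes were higher for 13 and 13 of 21, and cholesterol genes for 14 and 15 of 26. MYC was higher with shRNA 1 by 0.63 ± 0.13 (log2, edgeR adjusted p = 0.00869), and by 0.62 ± 0.17 without that library.

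The hairpins called 137 genes in opposite directions against their shared controls, with shRNA 1 the higher in 67 and the lower in 70. A difference between the hairpins follows nearly from that choice, so it is given as a description. MPO, the myeloperoxidase of azurophil granules, stood at 125, 63.8 and 95.4 CPM in controls and rose to 336, 269.9 and 228 CPM with shRNA 1 (2.93-fold, edgeR adjusted p = 0.000462). In the fit with shRNA 2, MPO was at 50.1, 29.2 and 43.3 CPM with that hairpin, below every control. CA2, carbonic anhydrase 2, rose 3.49-fold with shRNA 1 from 17.5 ± 4.60 CPM (SD, n = 3) and was at 2.40, 2.48 and 1.66 CPM with shRNA 2. ACY3, an aminoacylase, rose 3.41-fold from 0.781 CPM with shRNA 1. CXCL10, an interferon-induced chemokine, was lower with shRNA 1 at 2.14 against 3.56 CPM, a call lost without any of 3 single libraries (edgeR adjusted p from 0.0585 to 0.0768), and was at 23.1, 33.3 and 30.4 CPM with shRNA 2. SORCS2, BIN1, LAT and RPS6KA2 completed the 8 with the largest direct differences; the calls of SORCS2, BIN1 and RPS6KA2 against control were lost without control replicate 2 (edgeR adjusted p from 0.0567 to 0.0656). The LAT call was lost in all 6 fits that left out 1 library (0.0625 to 0.202), with DESeq2 (0.0667) and with the first row of each symbol (0.0501).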

How the data were processed

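RNA from MOLM13 cells was sequenced, and 6 of 9 libraries enter here. The raw counts were deposited by the authors as whole numbers per transcript row. STAR, DESeq and build hg19 are named per the submitters' processing notes. Not given in the sources used here were their roles, the counting program, strand and the handling of multi-mapping reads. Of 48104 rows, 25679 symbols were kept, each by its row with the highest total over the 9 count columns. Spreadsheet dates stood for 80 symbols; 78 were restored and 2 left out. RefSeq matched 97.688% of rows.

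edgeR 4.0.16 in R 4.3.3 (filterByExpr, TMM, robust quasi-likelihood F-test, two-sided, Benjamini-Hochberg, threshold 0.05) was fitted to the 6 libraries without a block, and tested on simulated data. SE is the absolute log2 fold change over the square root of F. DESeq2 1.42.0 was an alternative; others were RLE scaling, no filter, a 1 CPM filter, the replicate block, 8 or 9 libraries, ribosomal RNA rows left out, the first row of a symbol, a test against 1.5-fold and leaving out each library. Deviations of same-numbered libraries correlated at 0.821, -0.009 and 0.145, so the numbers were not taken to pair samples.

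Genes were named by rule: YTHDC1 and MYC, the 12 largest called rises and falls that do not overlap and reach 5 CPM in a group, the largest changes in CPM, the leading members of each list, the widest spread within a group above 20 CPM, and the 8 largest direct differences among genes that the hairpins call in opposite directions; further list members are named with their list's counts. The members and lists were chosen with earlier results of these data known. Counting intervals and floors cover counting error only. Some list members are not reported here.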

Additional observations from a re-analysis of the deposited data

Results flagged for a closer look

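These 8 genes have the largest differences between shRNA 1 and shRNA 2 among genes that the hairpins called in opposite directions against the same 3 controls. They were chosen for that difference, so the values, log2 of shRNA 1 minus shRNA 2 with the SE, are a description. The call of LAT with shRNA 1 against control was lost in all 6 fits that left out 1 library. CA2 differed by 4.86 ± 0.22, ACY3 by 3.38 ± 0.36, SORCS2 by 3.09 ± 0.23 and MPO by 2.82 ± 0.23. CXCL10 differed by -3.70 ± 0.19, LAT by -3.07 ± 0.25, BIN1 by -2.84 ± 0.49 and RPS6KA2 by -2.77 ± 0.20. Without shRNA 2 replicate 1, the differences were 4.94 for CA2, 3.43 for ACY3, 3.27 for SORCS2, 3.00 for MPO, -3.83 for CXCL10, -2.90 for LAT, -2.69 for BIN1 and -2.62 for RPS6KA2.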

How the results depend on the processing

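Of 289 named genes, 285 were called; 232 stayed called in every fit that left out 1 library, and 258 under every other alternative run on single genes, which leaves out the test against 1.5-fold. Leaving out 1 library gave 1945 to 3184 genes higher and 2015 to 3362 lower, with YTHDC1 from -0.275 to -0.064 and MYC from -1.455 to -1.27 (log2); the lowest counts came without control replicate 2, with 64.5% of the calls shared. The test against 1.5-fold called 1054 higher and 957 lower. DESeq2 called 2985 higher and 3166 lower. RNA5-8S5 turned to -0.379 without YTHDC1 shRNA 1 replicate 2 (edgeR adjusted p = 0.516), and SCARNA2 to 0.198 without replicate 3 (0.655). Over the fits that left out 1 library, RNA5-8S5 ran from -0.379 to 0.846 and SCARNA2 from -1.184 to 0.198, SCARNA2 passing without shRNA 1 replicate 2 (0.0181). Neither passed in the 6-library fit, and the cause was not tested.

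With the replicate number as a block, 3769 genes were higher and 4023 lower, YTHDC1 stood at -0.175 and MYC at -1.405, and the direct comparison of hairpins gave 1760 higher and 2015 lower. The number is not shown to pair all the samples. Replicate 1 of shRNA 1 did correlate best with control replicate 1 (0.821). In contrast, shRNA 1 replicate 2 correlated best with control replicate 3 (0.425), and shRNA 1 replicate 3 with control replicate 2 (0.158). Depth limits genes near the floor of 3 counts.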
